A study of Mus musculus with 6 samples.

Results

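Solute carriers are membrane proteins that move small molecules into, out of and between the compartments of cells, and the genes described here are those of 25 of their families, numbered between Slc10 and Slc48. The members were taken by symbol alone, as every row of the table named for one of these families, with only subfamily a of Slc35 in it and no pseudogenes. The table lists 12125 genes, of which 252 are Slc genes and 83 are members, from 23 of the 25 families. No member of Slc24 (sodium/calcium-potassium exchangers) or Slc28 (concentrative nucleoside transporters) is listed. The rule used no measured value, but it was chosen with earlier results of these data known. Of the 83 members, 71 reached 10 normalized counts in 3 or more libraries and were tested.

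The study asked what loss of TRF1, a protein that protects telomeres, does to kidney fibroblasts, and RNA was sequenced from 500 sorted cells of each of 6 kidneys. Of the 6 mice, 3 were *Trf1*+/+; Col1a2-CreERT2 and 3 were *Trf1*flox/flox; Col1a2-CreERT2. All carried the KFP reporter (a red fluorescent protein that Cre switches on) and were males and females that received tamoxifen from 6 to 8 weeks of age, 3 times a week for 8 weeks. The controls therefore share the Cre, the reporter and the tamoxifen, and differ by design in the floxed *Trf1* allele. Sex was not part of the comparison, and its balance between the genotypes is not known here. Cre is driven here by the *Col1a2* promoter, so it acts only where that promoter is on, and the cells were stained for CD29 and for the reporter, but whether the sequenced cells carried both is not given in the sources used here. Each library is 1 mouse, so the spread below is that between mice, and replicates are numbered within each genotype without pairing any mice.

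The labels call the cells fibroblasts, and their markers go against this. Of 15 fibroblast and pericyte markers, 12 are not listed (*Col1a1*, *Col3a1*, *Pdgfra* and *Pdgfrb* among them), *Col1a2* had at most 1.78 normalized counts in any library, and the 3 listed markers summed to 1.66 to 105. How genes were chosen for the table is not given, so an unlisted marker is not shown to be absent from the cells. All 18 proximal tubule markers are listed, and the 17 that are not members summed to 134387, 31249 and 119945 in *Trf1*+/+ mice, against 29584, 101684 and 155921 in *Trf1*flox/flox mice. Loop of Henle markers summed to 45736 to 143914 and collecting duct markers to 851 to 19698, and distal convoluted tubule markers to 55290 to 77921 in *Trf1*+/+ and 22005 to 38594 in *Trf1*flox/flox libraries, without overlap. None of 5 podocyte markers is listed. The other lists summed to 1.72 to 307 (2 of 10 endothelial markers listed), 172 to 2574 (5 of 12 leukocyte markers) and 121 to 52403 (5 of 6 erythroid markers). The part of these cells in the results was not tested, and the libraries are called kidney cells below.

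The deposited values are normalized counts, that is, reads of a gene divided by 1 size factor per library. The libraries held 10263382 to 12248797 reads on the listed genes, and 1 read was worth 0.689 to 1.09 normalized counts. A value of at most 3 reads is called the floor here; the reads carry no molecular identifiers, so this covers counting error only. The library labelled *Trf1*+/+ replicate 1 stood apart. It had 1 read of *Terf1*, the gene of TRF1 (0.891 normalized counts), which goes against its label. *Trf1*+/+ replicates 2 and 3 had 253 and 235, and the *Trf1*flox/flox libraries 110.0, 7.65 and 12.4. However, only 56.2% of all listed genes were above the floor in *Trf1*+/+ replicate 1, against 70.2 to 91.6% in the others. A single read therefore does not settle the genotype of that library. *Trf1*flox/flox replicate 1 had 128 reads of *Terf1*, and whether any label is wrong was not tested. All groups are used as labelled. The differences printed below that change markedly without *Trf1*+/+ replicate 1 are given without it too.

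Many of these families serve the kidney tubule. The proximal tubule recovers sulfate, dicarboxylates, small peptides, ascorbate, folate and bile acids from the filtrate with carriers on its luminal side, burns fatty acids as its main fuel, and secretes organic cations and anions into the urine. Other members sit in inner membranes, where they bring zinc, nucleotide sugars, acetyl-CoA and glucose 6-phosphate into the Golgi, the endoplasmic reticulum or lysosomes, and these are used by nearly every cell type.

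Levels of different genes are compared per kb of exon, the length of all exons of a gene joined. The highest member was *Slc27a2*, a fatty acid carrier and very long chain acyl-CoA synthetase, with 1697 ± 1005 (SD, n = 6) normalized counts per kb over the 6 libraries. It was followed by *Slc17a1*, a carrier of urate and phosphate in the proximal tubule (645 ± 408), *Slc37a4*, the glucose 6-phosphate carrier of the endoplasmic reticulum (481 ± 391), and *Slc16a7*, the monocarboxylate carrier MCT2 (479 ± 343). Next came *Slc47a1*, which pumps organic cations into the urine (348 ± 178), and *Slc48a1*, a heme carrier of endosomes and lysosomes (336 ± 169). From *Slc17a1* down to the last of the 15 genes plotted, each step between neighbours was smaller than the SD of either gene, so the order within it is not resolved. In all, 56 of the 83 members had a mean of at least 100 normalized counts and 7 a mean of at least 1000, while 44 were at 0 in at least 1 library.

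**Figure D1:**
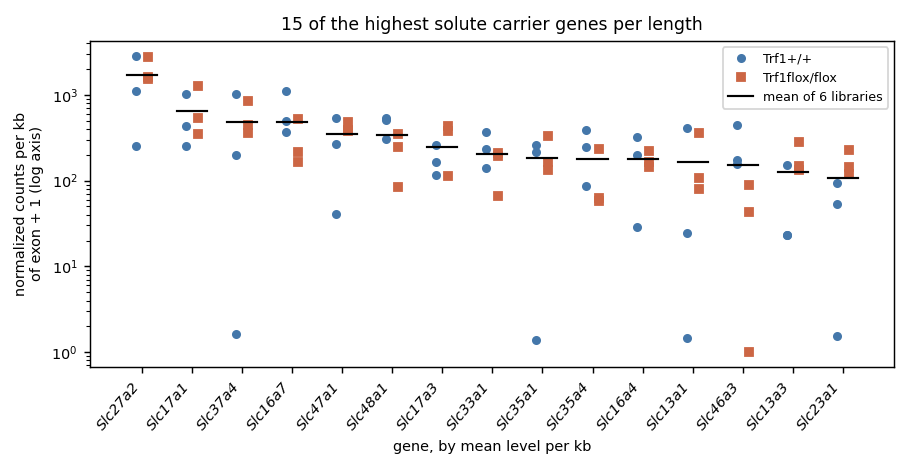
Levels of 15 of the 16 highest members per length: the vertical axis gives normalized counts per kb of exon plus 1 on a log axis, each point is 1 library and the line is the mean of the 6 libraries. *Slc27a2* stands highest at a mean of 1697 per kb, and *Slc37a4*, *Slc35a1*, *Slc13a1*, *Slc46a3* and *Slc23a1* each have 1 library near 1, that is, near 0 counts.

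Members were found unevenly among the libraries. Above the floor were 34 of the 83 members in *Trf1*+/+ replicate 1, 66 and 68 in *Trf1*+/+ replicates 2 and 3, and 67, 62 and 80 in *Trf1*flox/flox replicates 1, 2 and 3. These are 41.0, 79.5, 81.9, 80.7, 74.7 and 96.4% of the members, beside 56.2, 80.0, 83.3, 82.7, 70.2 and 91.6% of all listed genes. The median member had 1.78 normalized counts in *Trf1*+/+ replicate 1, while the others had 110 to 195. In spite of this, the members summed to 37345 normalized counts in *Trf1*+/+ replicate 1, within the range of the others (22554 to 44649), and *Slc16a7* alone gave 35.4% of it. Per kb of exon the highest member was *Slc16a7* in *Trf1*+/+ replicates 1 and 2, in the first of them nearly level with *Slc27a2* (1116 and 1113), and *Slc27a2* in the other 4 libraries. Of the 71 tested members, 33 had their lowest value in *Trf1*+/+ replicate 1 and 14 their highest; 26 of the 83 members were above the floor in all 6 libraries, and 44 in the 5 without *Trf1*+/+ replicate 1. The 12 members too low to be tested were *Slc10a5*, *Slc13a4*, *Slc15a4*, *Slc23a2*, *Slc23a3*, *Slc38a3*, *Slc38a7*, *Slc39a5*, *Slc39a6*, *Slc39a14*, *Slc41a3* and *Slc44a3*.

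**Figure D2:**
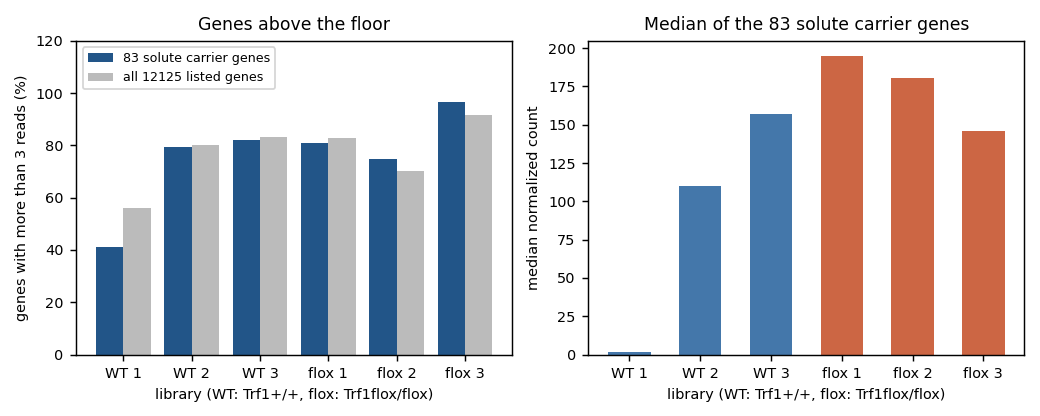
Detection of the members in each library: the left bars give the percentage of the 83 members (blue) and of all 12125 listed genes (grey) with more than 3 reads, and the right bars the median normalized count of the 83 members. *Trf1*+/+ replicate 1 is lowest in both, at 41.0% and 1.78, and *Trf1*flox/flox replicate 3 has the most members above the floor, 96.4%.

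**Figure D3:**
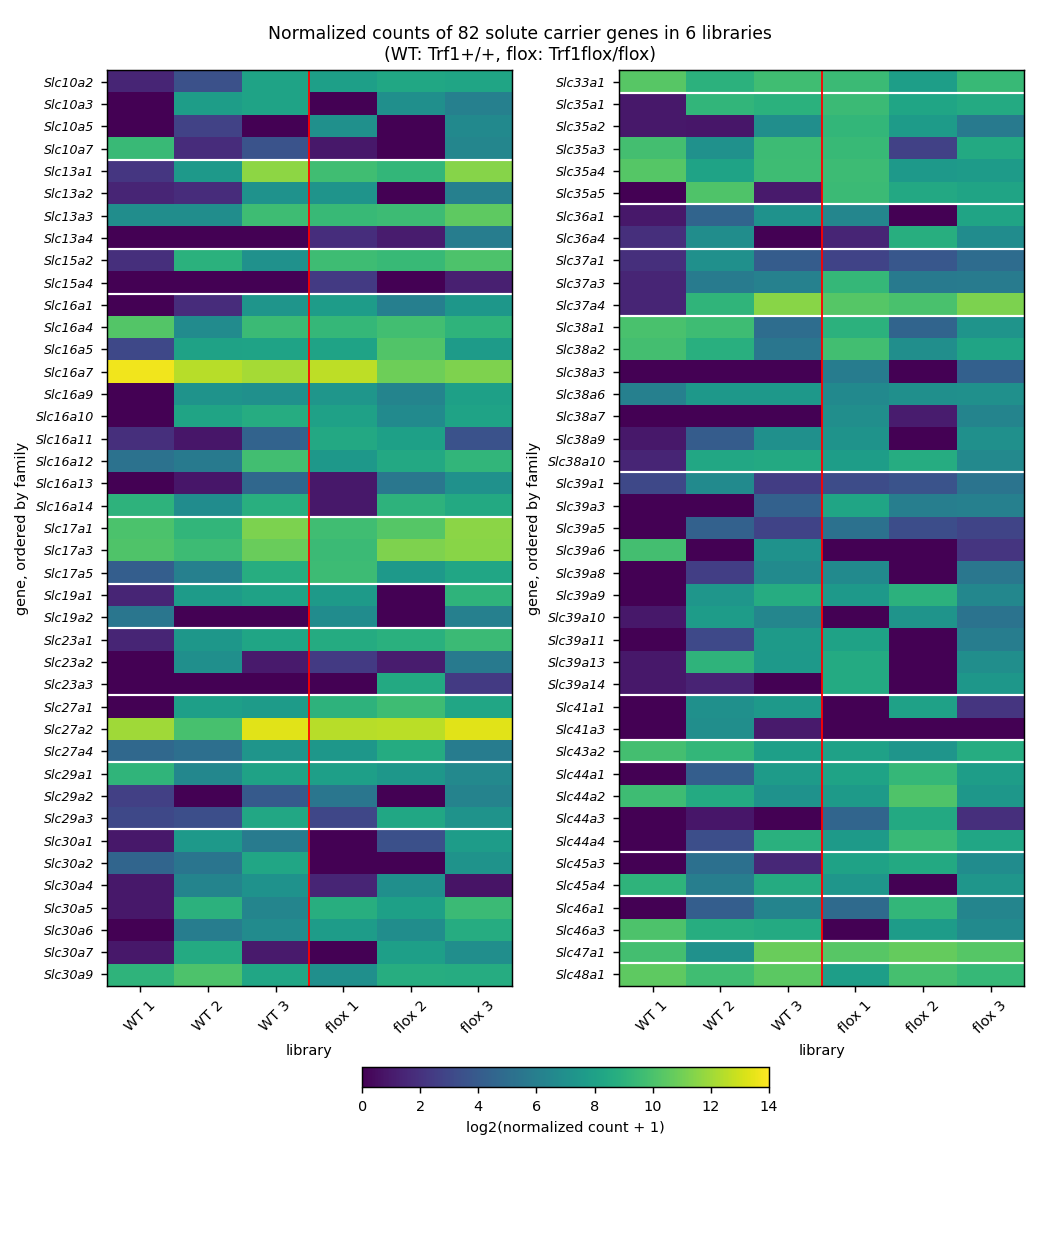
The 82 members drawn, of 83, in all 6 libraries, ordered by family with white lines between families; the colour gives log2(normalized count + 1) from 0 (dark) to 14 (yellow), and the red line divides the genotypes. The column of *Trf1*+/+ replicate 1 holds the most dark cells, with 27 members at 0.

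The comparison of the genotypes was made in limma over the 9966 genes that passed the filter, on log2(normalized count + 1). This scale understates changes of genes low in every library, while 1 library near 0 can enlarge a difference of means. A difference below is the mean of these values in *Trf1*flox/flox minus that in *Trf1*+/+ mice. No member passed an adjusted p of 0.05, nor did any gene (0% of the 9966). The smallest adjusted p of a member was 0.580, for *Slc45a3*. At an unadjusted p under 0.05 there were 3 members, *Slc45a3*, *Slc39a3* and *Slc16a11*, all higher in *Trf1*flox/flox. The 3 are 4.23% of those tested, and 4.56% of all tested genes passed the same threshold. Without *Trf1*+/+ replicate 2 there were 5 higher members (7.04%, against 4.71% of all tested genes), and without *Trf1*+/+ replicate 3 there were 12 (16.9%, against 7.45%). With edgeR on the reads behind the values no member passed either threshold, and 1.97% of all genes passed the unadjusted one. With DESeq2 no member passed the adjusted p, which 0.582% of all genes did, and 2 members had an unadjusted p under 0.05 (2.82%, against 4.11%). DESeq2 gave no p for some tested members, *Slc10a2*, *Slc10a7* and *Slc13a1* among them, and these shares count such genes as not passing. Hence no member is called changed, and what follows are levels and differences with their errors.

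Of the tested members, 46 had a higher and 25 a lower mean log2 value in *Trf1*flox/flox, so that 64.8% were higher, against 55.9% of all tested genes. Their median difference was 1.10 on the log2 scale, and that of all tested genes was 0.20. Of the 46 higher members 30 were at or under the floor in *Trf1*+/+ replicate 1, as were 8 of the 25 lower ones. Without that library 39 members were higher and 32 lower, and the medians were 0.18 for the members and -0.03 for all genes. The median of the members was also moved by *Trf1*+/+ replicate 3 (2.17 without it) and *Trf1*flox/flox replicate 3 (0.54 without it). It was 0.38 with edgeR and 0.41 with DESeq2, where the median of all genes was -0.04 and -0.05, and 1.24 after scaling to the upper quartile, where that of all genes was 0.38. In a sample of mixed cells, fewer cells of a type and less RNA per cell cannot be told apart in such differences.

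The spread between mice of 1 genotype was wide. The SD of the log2 values within genotypes had a median of 2.77 over the tested members and 2.17 over all tested genes. It was smallest for *Slc38a6* (0.58), an amino acid carrier, and largest for *Slc39a13* (4.44), a zinc carrier of the Golgi and endoplasmic reticulum. For 34 of the 71 members the standard error exceeded the difference itself.

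**Figure D4:**
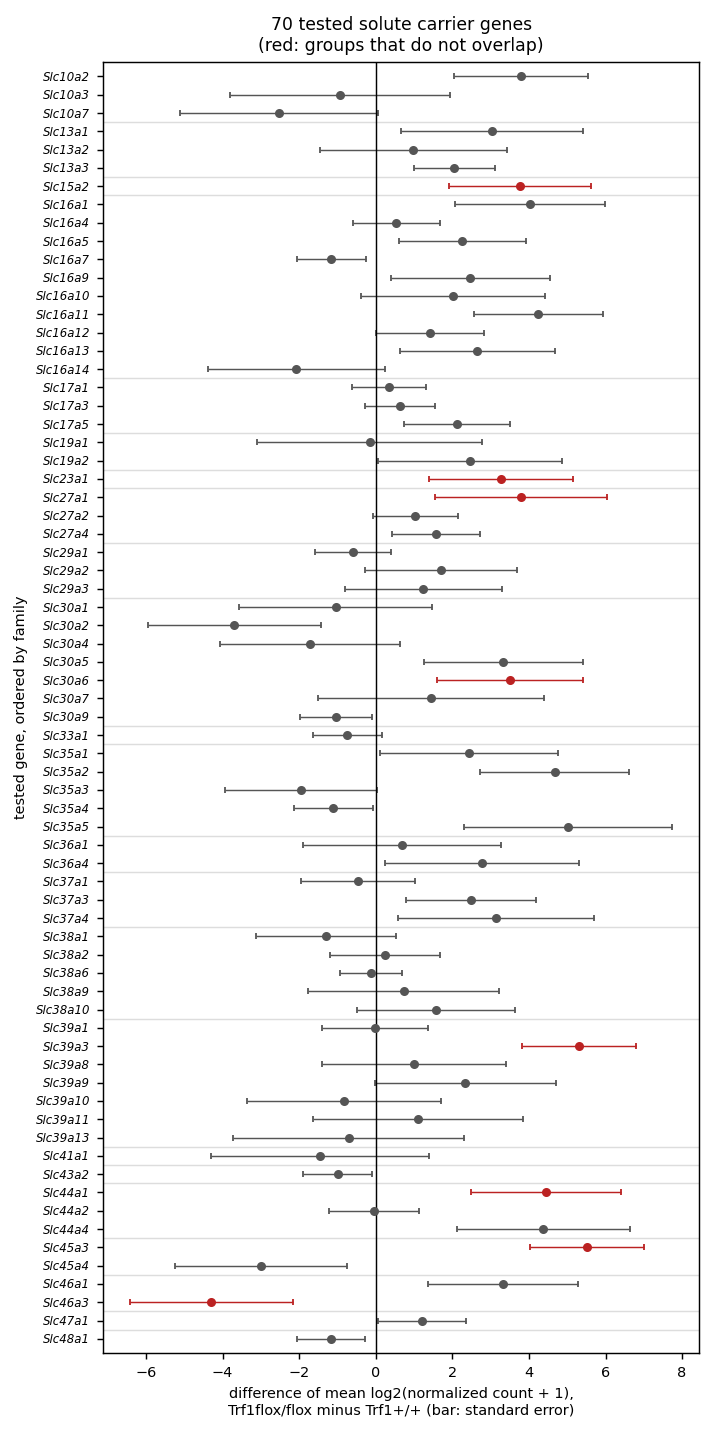
Difference between the genotypes for 70 of the 71 tested members, ordered by family: points give the difference of the mean log2(normalized count + 1), *Trf1*flox/flox minus *Trf1*+/+, bars the standard error from limma, and red marks members whose genotypes do not overlap. The points run from -4.30 (*Slc46a3*) to 5.53 (*Slc45a3*), and 45 of them lie to the right of 0.

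The genotypes did not overlap for 8 tested members. In 7 of them (9.86%, against 5.35% of all tested genes) every *Trf1*flox/flox library was above every *Trf1*+/+ library: *Slc15a2*, *Slc23a1*, *Slc27a1*, *Slc30a6*, *Slc39a3*, *Slc44a1* and *Slc45a3*. In 1, *Slc46a3* (1.41%, against 3.33%), every *Trf1*flox/flox library was below. The 7 belong to 7 different families and carry peptides, ascorbate, fatty acids, zinc, choline and sugar, and *Trf1*+/+ replicate 1 had at most 3 reads of each of them. With 1 library fewer, separation is reached more easily, and the counts without each library were 7 to 22 higher (9.86 to 31.0%, against 8.72 to 13.6% of all tested genes) and 2 to 7 lower (2.82 to 9.86%, against 5.98 to 10.8%). The first count was moved most without *Trf1*+/+ replicate 3 (22 higher, or 31.0%, against 13.6%), *Trf1*flox/flox replicate 1 (11, or 15.5%, against 8.72%) and *Trf1*flox/flox replicate 2 (11, or 15.5%, against 9.24%). Without *Trf1*+/+ replicate 1 it was 7, at 9.86% of the members and 9.15% of all tested genes. The second was 4, 7 and 4 without *Trf1*+/+ replicates 1, 2 and 3, and 3, 2 and 3 without *Trf1*flox/flox replicates 1, 2 and 3. *Slc30a6* alone was no longer apart after upper quartile scaling and in edgeR.

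**Figure D5:**
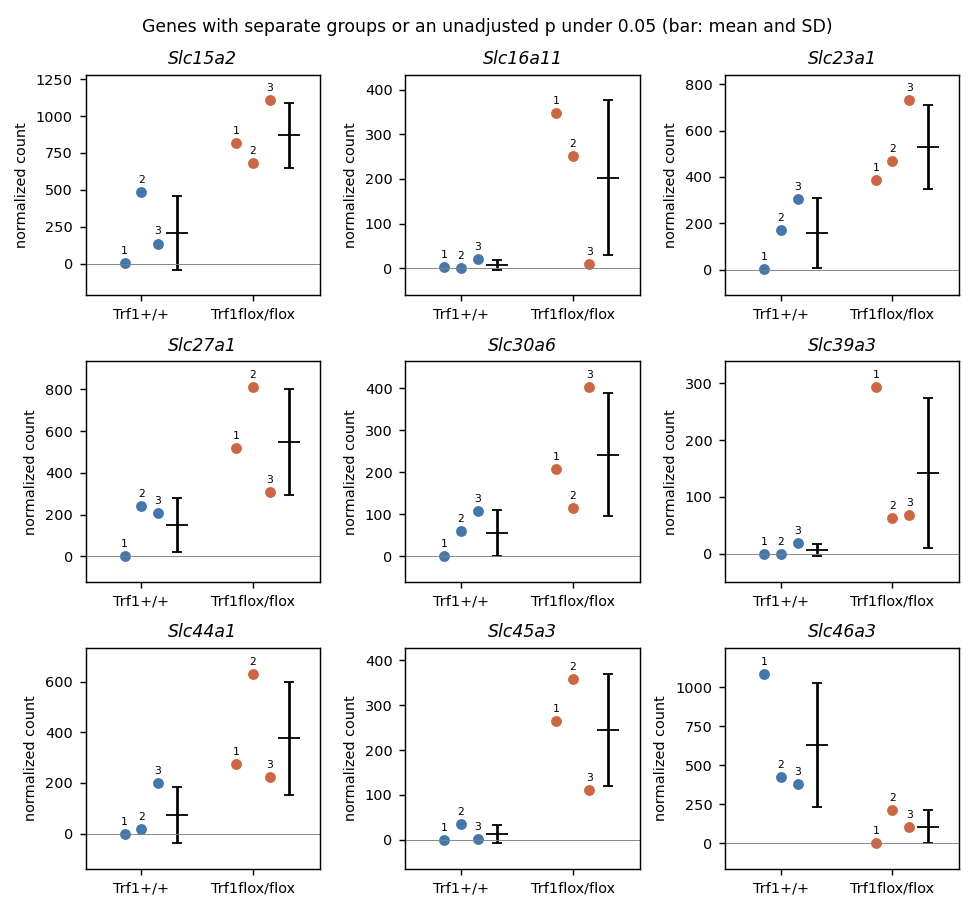
Normalized counts per library (points, numbered by replicate) with the mean and SD of each genotype for the 8 members whose genotypes do not overlap and for *Slc16a11*, which had an unadjusted p under 0.05. *Trf1*+/+ replicate 1 is the lowest point (tied with replicate 2 in *Slc39a3*) for the 7 members whose *Trf1*flox/flox libraries were all higher, and the highest point in *Slc46a3*.

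Among carriers known from the proximal tubule, *Slc15a2*, *Slc23a1*, *Slc13a3* and *Slc47a1* had higher means in *Trf1*flox/flox, and none passed the test. *Slc15a2* (chromosome 16, 36750177 to 36784962) encodes PEPT2, which recovers dipeptides and tripeptides. It had 2.67, 483 and 136 normalized counts in *Trf1*+/+ mice, against 819, 681 and 1109 in *Trf1*flox/flox mice, in replicate order as throughout. All 3 *Trf1*flox/flox libraries were above the highest *Trf1*+/+ library, and the difference was 3.77 on the log2 scale (standard error 1.86, adjusted p = 0.996 from limma). Without *Trf1*+/+ replicate 1, which had 3 reads, it was 1.73. *Slc15a4*, the other listed member, which carries histidine and peptides out of lysosomes, had no read in any *Trf1*+/+ mouse, against 4.30, 0 and 1.38 in *Trf1*flox/flox mice, the first of them 5 reads.

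*Slc23a1* (chromosome 18, 35614604 to 35627244), the ascorbate carrier SVCT1 of the tubule, had 1.78, 171 and 303 normalized counts in *Trf1*+/+ mice, against 385, 469 and 733 in *Trf1*flox/flox mice. The genotypes did not overlap and the difference was 3.28 on the log2 scale (standard error 1.88, adjusted p = 0.996 from limma), but it was 1.16 without *Trf1*+/+ replicate 1. *Slc23a2*, the ascorbate carrier of most other cells, had 0, 127 and 0.985, against 4.30, 1.09 and 51.7, with too few libraries above the minimum for a test. *Slc23a3*, an orphan carrier of the family, was listed at 0 in 4 libraries and had 363 in *Trf1*flox/flox replicate 2 alone, beside 4.13 in replicate 3.

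The Slc13 carriers take up sulfate and dicarboxylates with sodium. *Slc13a1*, the sulfate carrier of the luminal membrane, ranged widely within each genotype, with 3.56, 179.8 and 3136 in *Trf1*+/+ mice, against 833, 612 and 2769 in *Trf1*flox/flox mice. Its libraries overlapped (difference 3.03, standard error 2.38). The difference was 0.58 without *Trf1*+/+ replicate 1, which had 4 reads, and 5.29 without *Trf1*+/+ replicate 3. *Slc13a3*, the high-affinity dicarboxylate carrier, had 115, 116 and 795, against 692, 762 and 1457, where *Trf1*+/+ replicate 3 lay above *Trf1*flox/flox replicates 1 and 2 (difference 2.05, standard error 1.07). The luminal dicarboxylate carrier *Slc13a2* had 0 to 151. *Slc13a4*, a second sulfate carrier, had 0 in all *Trf1*+/+ libraries and 2.58, 1.09 and 60.0 in *Trf1*flox/flox, of which replicates 1 and 2 were at the floor.

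*Slc10a2*, which takes up bile acids with sodium, had 1.78, 9.94 and 282 in *Trf1*+/+ mice, against 238, 320.2 and 299 in *Trf1*flox/flox mice. *Trf1*+/+ replicate 3 lay among the *Trf1*flox/flox libraries, while replicates 1 and 2 lay far below, and the difference was 3.80 (standard error 1.75), or 2.35 without replicate 1. *Slc10a3*, *Slc10a5* and *Slc10a7*, whose substrates are less settled, were each at or near 0 in at least 2 libraries. *Slc10a7* stood out only in *Trf1*+/+ replicate 1, with 727 normalized counts against at most 84.1 elsewhere.

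*Slc17a1* and *Slc17a3* are neighbours on chromosome 13 (23867750 to 23895730 and 23839434 to 23860716), and both carry urate and other organic anions. Both were well above the floor in all libraries. *Slc17a1* had 1031, 601 and 2449 in *Trf1*+/+ mice, against 834, 1258 and 3004 in *Trf1*flox/flox mice, and *Slc17a3* had 1113, 776 and 1778, against 757, 2541 and 2906. Both were highest in *Trf1*flox/flox replicate 3, the genotypes overlapped, and the differences were 0.35 (standard error 0.96) and 0.62 (standard error 0.91). With each library left out they were -0.17 to 0.90 and 0.27 to 1.23, and that of *Slc17a1* turned negative without *Trf1*+/+ replicate 2 or *Trf1*flox/flox replicate 3. The summed proximal tubule markers were lowest in *Trf1*+/+ replicate 2 and *Trf1*flox/flox replicate 1, the 2 libraries that were also lowest for *Slc17a1* and *Slc17a3*; the part of these cells in the levels was not tested. *Slc17a5*, which carries sialic acid out of lysosomes, had 16.9, 68.8 and 421, against 777, 180.3 and 309.

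*Slc47a1*, the exchanger of organic cations and protons known as MATE1, had 905, 133 and 1814 normalized counts in *Trf1*+/+ mice, against 1300.0, 1652 and 1265 in *Trf1*flox/flox mice. Its mean was 951 ± 841 (SD, n = 3), against 1406 ± 214 (SD, n = 3), and the highest value was in a *Trf1*+/+ library (difference 1.21, standard error 1.16). The difference was 0.12 without *Trf1*+/+ replicate 2, the lowest library, and 2.0 without *Trf1*+/+ replicate 3, the highest.

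The Slc16 family moves monocarboxylates such as lactate and pyruvate, aromatic amino acids and creatine, and all of its 11 listed members were tested. In 9 the mean log2 value was higher in *Trf1*flox/flox and in 2 lower, *Slc16a7* and *Slc16a14*. The family summed to 16788, 6777 and 8474 normalized counts in *Trf1*+/+ mice, against 8535, 5755 and 6112 in *Trf1*flox/flox mice, and *Slc16a7* had the most counts of its members in every library, not divided by length. *Slc16a7*, the high-affinity monocarboxylate carrier, had 13217, 5783 and 4411, against 6153, 1928 and 2549. *Trf1*+/+ replicate 1 was the highest, and *Trf1*flox/flox replicate 1 lay above both other *Trf1*+/+ libraries, with means of 7804 ± 4738 (SD, n = 3) and 3543 ± 2281 (SD, n = 3) and a difference of -1.16 (standard error 0.91), or -0.70 without *Trf1*+/+ replicate 1.

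*Slc16a11* (chromosome 11, 70212752 to 70216417), a pyruvate carrier, had 2.67, 0.829 and 20.7 in *Trf1*+/+ mice, against 348, 250.3 and 10.3 in *Trf1*flox/flox mice. It was high in 2 *Trf1*flox/flox libraries and low in the other 4, so that the genotypes overlapped although the unadjusted p of limma was 0.0451. The difference was 4.25 on the log2 scale (standard error 1.69, adjusted p = 0.996 from limma). *Slc16a13*, its neighbour on the chromosome (70216789 to 70221064), had 0, 0.829 and 24.6, against 0.859, 45.9 and 133, and it did not follow *Slc16a11*, being at 1 read in *Trf1*flox/flox replicate 1 where *Slc16a11* was highest. *Slc16a1*, the common lactate carrier MCT1, had 0, 2.49 and 159, against 212, 64.5 and 169. *Slc16a4*, an orphan carrier, was beside *Slc16a7* the only member of the family above 100 in all libraries, with 107 to 1235. The other members, *Slc16a5*, *Slc16a9*, *Slc16a10*, *Slc16a12* and *Slc16a14*, ranged from 0 to 1174.

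Fatty acids enter cells and are joined to coenzyme A with the help of the Slc27 proteins, and all 3 listed members had higher means in *Trf1*flox/flox. *Slc27a2* had 4177, 955 and 10789 normalized counts in *Trf1*+/+ mice, against 5771, 6041 and 10494 in *Trf1*flox/flox mice, with its highest and lowest library both *Trf1*+/+ and a difference of 1.03 (standard error 1.11). Without *Trf1*+/+ replicate 2, the lowest, it was 0.09, and without *Trf1*+/+ replicate 3, the highest, 1.84. *Slc27a1* (chromosome 8, 71568882 to 71587302), a carrier of long-chain fatty acids, had 0, 239 and 208, against 521, 812 and 311. The genotypes did not overlap, with a difference of 3.79 on the log2 scale (standard error 2.24, adjusted p = 0.996 from limma), and of 1.18 without *Trf1*+/+ replicate 1, where it was at 0. *Slc27a4*, another long-chain carrier, had 25.8, 34.0 and 157, against 168, 395 and 57.2 with overlap. Of the 7 tested acyl-CoA synthetases outside the family, which activate fatty acids too, 3 were higher and 4 lower, with differences between -0.49 and 0.43, and none had an unadjusted p under 0.05 in limma.

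Nucleosides cross membranes down their gradient through the Slc29 carriers. *Slc29a1*, of the plasma membrane, had 576, 87.8 and 266 in *Trf1*+/+ mice, against 237, 172 and 95.1 in *Trf1*flox/flox mice (difference -0.60, standard error 1.00). The difference was 0.04 without *Trf1*+/+ replicate 1, -1.31 without *Trf1*+/+ replicate 2 and -0.24 without *Trf1*flox/flox replicate 3. *Slc29a2* had 0 to 74.4, and *Slc29a3*, of lysosomes, 6.87 to 339. Among 8 tested genes of nucleoside salvage, which turn nucleosides back into nucleotides, 3 were higher and 5 lower, with no unadjusted p under 0.05.

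Folate and thiamine enter through *Slc19a1* and *Slc19a2*. *Slc19a1*, the reduced folate carrier, had 1.78, 201 and 267, against 194, 0 and 553, at 0 in *Trf1*flox/flox replicate 2 and highest in replicate 3. *Slc19a2*, the thiamine carrier, was at 0 in 3 libraries. *Slc46a1*, the proton-coupled folate carrier, had 0, 17.4 and 77.8, against 27.5, 611 and 81.3, with 1 high library. Of 9 tested genes of folate and thiamine use, 6 were higher and 3 lower, and none had an unadjusted p under 0.05.

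*Slc46a3* (chromosome 5, 147878437 to 147894815), a lysosomal carrier, was the 1 member whose *Trf1*flox/flox libraries were all lower. It had 1087, 422 and 377 normalized counts in *Trf1*+/+ mice, against 0, 215 and 105 in *Trf1*flox/flox mice, a difference of -4.30 on the log2 scale (standard error 2.13, adjusted p = 0.996 from limma). *Trf1*flox/flox replicate 1 was at 0, and without it the difference was -1.88.

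Zinc is kept in balance by the Slc30 carriers, which move it out of the cytosol into vesicles, the Golgi or the outside, and the Slc39 carriers, which move it (and, for some, iron or manganese) into the cytosol. Of the 7 listed Slc30 members 3 were higher and 4 lower, and of the 7 tested Slc39 members 4 were higher and 3 lower. The family sums overlapped: Slc30 had 584, 2349.8 and 1014 in *Trf1*+/+ mice, against 766, 1164 and 2031 in *Trf1*flox/flox mice, and Slc39 had 894, 1056 and 1142, against 1655, 737 and 639. The sums hid large differences between libraries in single genes.

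Of the exporters, *Slc30a6*, *Slc30a5* and *Slc30a9* stood close to each other per kb of exon, at 48.5 ± 46.3, 45.8 ± 38.0 and 39.4 ± 26.5 (SD, n = 6). *Slc30a9*, which has been placed in mitochondria, had 558, 1089.6 and 314 in *Trf1*+/+ mice, against 125, 427 and 407 in *Trf1*flox/flox mice. *Slc30a5* and *Slc30a6* act together as a pair in the early secretory pathway, where they load enzymes with zinc. *Slc30a6* (chromosome 17, 74395608 to 74424221) had 0, 59.7 and 108, against 209, 115 and 403, with no overlap by a margin of 108 against 115 and a difference of 3.51 on the log2 scale (standard error 1.91, adjusted p = 0.996 from limma). *Slc30a5* had 0.891, 505 and 80.8, against 429.6, 250.3 and 739, where *Trf1*+/+ replicate 2 lay among the *Trf1*flox/flox libraries (difference 3.33, standard error 2.08). Without *Trf1*+/+ replicate 1, in which *Slc30a6* had no read and *Slc30a5* had 1, the differences were 1.39 for *Slc30a6* and 1.08 for *Slc30a5*, and that of *Slc30a5* was 5.11 without *Trf1*+/+ replicate 2. *Slc30a1*, the exporter of the plasma membrane, had 0.891, 193 and 55.2, against 0, 9.84 and 214, and its genotypes overlapped fully. *Slc30a2* and *Slc30a7*, of vesicles and the Golgi, ranged from 0 to 382.

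Of the importers, *Slc39a3* (chromosome 10, 81028538 to 81037426), of the plasma membrane, had 0, 0 and 19.7 normalized counts in *Trf1*+/+ mice, against 294, 62.3 and 68.2 in *Trf1*flox/flox mice. The genotypes did not overlap, and the difference was 5.31 on the log2 scale (standard error 1.49, adjusted p = 0.628 from limma). Leaving out any 1 library gave 4.58 to 6.77. *Slc39a9*, of the Golgi, had 0, 164 and 399, against 192, 504 and 87.5, and *Slc39a13* had 0.891, 542 and 191, against 373, 0 and 121; exons of both overlap those of genes on the opposite strand (*Erh* and *Psmc3*), and the libraries do not keep the strand. *Slc39a14*, which also takes up iron, was at the floor in all *Trf1*+/+ libraries and had 378, 0 and 167 in *Trf1*flox/flox. *Slc39a6* showed the opposite, with 884, 0 and 139.9 in *Trf1*+/+ mice, against 0, 0 and 3.45 in *Trf1*flox/flox mice, and too few libraries above the minimum for a test. *Slc39a1*, *Slc39a5*, *Slc39a8*, *Slc39a10* and *Slc39a11* ranged from 0 to 269.

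The transcription factor MTF1 binds metal response elements when zinc is high, and these elements were looked for in the promoters of the zinc carriers. The search took the 250 bases before each RefSeq start on GRCm38.p6, of which some genes have more than 1, and the core letters TGCACNC and TGCGCNC on both strands. At least 1 core stood in 9 of the 19 windows of Slc30 and Slc39 members (47.4%), 30 of the 90 windows of members (33.3%) and 21.4% of all 32851 windows. Counted by gene, with any of its windows, these were 8 of 15 (53.3%), 26 of 67 (38.8%) and 23.8% of 27025 genes. The promoters of 3 exporters are shown, each read 5′ to 3′ on the strand of its gene with cores in capitals, to set the pair *Slc30a5* and *Slc30a6* beside the vesicle carrier *Slc30a4*.
Slc30a4, chr2:122702664-122702913, minus strand: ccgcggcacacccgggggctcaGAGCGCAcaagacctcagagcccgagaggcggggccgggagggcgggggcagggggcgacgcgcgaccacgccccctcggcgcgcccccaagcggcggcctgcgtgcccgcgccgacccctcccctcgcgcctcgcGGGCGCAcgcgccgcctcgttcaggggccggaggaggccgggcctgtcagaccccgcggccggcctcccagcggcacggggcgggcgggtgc
Slc30a5, chr13:100833428-100833677, minus strand: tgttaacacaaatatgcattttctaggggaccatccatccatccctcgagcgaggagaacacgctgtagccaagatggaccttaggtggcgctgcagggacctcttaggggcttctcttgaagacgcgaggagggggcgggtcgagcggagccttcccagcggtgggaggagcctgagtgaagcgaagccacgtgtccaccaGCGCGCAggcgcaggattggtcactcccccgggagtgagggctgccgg
Slc30a6, chr17:74395358-74395607, plus strand: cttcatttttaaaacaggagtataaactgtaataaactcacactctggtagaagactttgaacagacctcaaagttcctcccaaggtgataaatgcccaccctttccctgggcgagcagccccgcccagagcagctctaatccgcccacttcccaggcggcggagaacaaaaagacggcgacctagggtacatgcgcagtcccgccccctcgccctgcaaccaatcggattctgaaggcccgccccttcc
*Slc30a4* holds 2 cores, *Slc30a5* holds 1 and *Slc30a6* holds none in this window, which describes the letters only. Of the exporters not shown, *Slc30a1* holds 1, *Slc30a2* holds 2, and *Slc30a7* and *Slc30a9* hold none. The base composition of the windows was not taken into account in the shares above. *Slc30a4* had 0.891, 77.9 and 141 normalized counts in *Trf1*+/+ mice, against 1.72, 126 and 0.689 in *Trf1*flox/flox mice, with 1 or 2 reads in 3 libraries of the 6.

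The metallothionein genes *Mt1* and *Mt2* bind zinc and are classical targets of MTF1. *Mt1* had 5115, 7429.7 and 2872 normalized counts in *Trf1*+/+ mice, against 2737, 3636 and 3837 in *Trf1*flox/flox mice, a difference of -0.51 (standard error 0.79). *Mt2* had 170.1, 551 and 379 normalized counts in *Trf1*+/+ mice, against 116, 152 and 205 in *Trf1*flox/flox mice, a difference of -1.09 (standard error 0.84). The genotypes overlapped in both, and no library was near the floor. Of the 3 tested genes of the zinc handling list 1 was higher and 2 lower, and none had an unadjusted p under 0.05 in limma.

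Nucleotide sugars are made in the cytosol or nucleus and brought into the Golgi by the Slc35 carriers. Of the 5 listed members of subfamily a, 3 were higher and 2 lower. Their sum was 2196, 2139 and 2208 normalized counts in the *Trf1*+/+ libraries, the narrowest range of any family with more than 1 member, and 3561, 1047 and 1298 in *Trf1*flox/flox. The genes behind this sum differed from library to library. *Slc35a4* and *Slc35a3*, a carrier of UDP-N-acetylglucosamine, made up most of it in *Trf1*+/+ replicate 1 (1289.7 and 904), and *Slc35a5* and *Slc35a1* in replicate 2 (1136 and 587). *Slc35a1*, the CMP-sialic acid carrier, had 0.891, 587 and 498 in *Trf1*+/+ mice, against 750.1, 304 and 379.7 in *Trf1*flox/flox mice, and *Slc35a2*, the UDP-galactose carrier, had 0.891, 0.829 and 119, against 605, 203 and 54.4 (difference 4.67, standard error 1.94). *Slc35a3* had 904, 137 and 784, against 700.3, 5.46 and 367, and *Slc35a4* had 1289.7, 278 and 806, against 765, 185 and 204; both had lower means in *Trf1*flox/flox with overlap.

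Of the 14 tested carriers of Slc35 subfamilies b to g, 9 were higher and 5 lower, and 4 had an unadjusted p under 0.05 in limma. Over all tested genes, 55.9% were higher and 4.56% had such a p. The lists of this paragraph were chosen with earlier results of these data known, so their counts are descriptions only. *Slc35d2*, which carries nucleotide sugars into the Golgi, had 0, 0 and 5.91 normalized counts in *Trf1*+/+ mice, against 67.9, 144 and 205 in *Trf1*flox/flox mice, a difference of 6.06 (standard error 1.10, adjusted p = 0.187 from limma). *Slc35b4* and *Slc35e3* were higher too and *Slc35e1* was lower, and none of the 4 passed the adjusted p. Of 18 tested genes of nucleotide sugar synthesis 14 were higher and 4 lower, and 2 had an unadjusted p under 0.05. These were *Nans*, the sialic acid synthase (0, 0.829 and 0.985 normalized counts in *Trf1*+/+ mice, against 105, 228 and 86.8 in *Trf1*flox/flox mice), and *Gmppb*, which makes GDP-mannose (0, 0 and 0 normalized counts in *Trf1*+/+ mice, against 273, 303 and 88.2 in *Trf1*flox/flox mice). Their genotypes did not overlap, and both had an adjusted p of 0.110 from limma. No tested gene had a smaller one, but the adjustment gave the same value to other genes too. Unadjusted, limma gave 9.43e-05 for *Gmppb* and 0.000227 for *Nans*, and the smallest p of any tested gene was 5.03e-05.

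Acetyl-CoA reaches the endoplasmic reticulum and Golgi through *Slc33a1*, which had 1313, 501 and 834 in *Trf1*+/+ mice, against 747, 228 and 682 in *Trf1*flox/flox mice (difference -0.74, standard error 0.90, or -0.40 without *Trf1*+/+ replicate 1 and -0.20 without *Trf1*flox/flox replicate 2). Glucose 6-phosphate reaches the endoplasmic reticulum, where it is split in the last step of glucose production, through *Slc37a4*. This gene had 1.78, 570.1 and 2941, against 1286, 1022 and 2428, and the 2 reads in *Trf1*+/+ replicate 1 lay far below the other values, which overlapped (difference 3.14, standard error 2.57). Without that library the difference was 0.18, and without *Trf1*+/+ replicate 3 it was 5.21. *Slc37a1* and *Slc37a3*, the other members, were at 1.78 to 129 but for 628 of *Slc37a3* in *Trf1*flox/flox replicate 1.

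Amino acids are carried with sodium by the Slc38 family, with protons by Slc36, and by facilitated diffusion by *Slc43a2*. Of the 5 tested Slc38 members, 3 were higher and 2 lower, and none of the 8 tested carriers of the 3 families separated the genotypes. *Slc38a1* and *Slc38a2*, which take up glutamine and other neutral amino acids at the plasma membrane, followed each other over the libraries. *Slc38a1* had 1023, 808 and 30.5 in *Trf1*+/+ mice, against 502, 21.9 and 152 in *Trf1*flox/flox mice, and *Slc38a2* had 893, 459 and 44.3, against 868, 120.2 and 288. Both were high in *Trf1*+/+ replicates 1 and 2 and *Trf1*flox/flox replicate 1 and low in *Trf1*+/+ replicate 3 and *Trf1*flox/flox replicate 2; they are neighbours on chromosome 15 (96571418 to 96642913 and 96687392 to 96699730). *Slc38a6* was the most even member of all, with 67.7, 176 and 176, against 101, 123 and 131 and a difference of -0.13 (standard error 0.81), which ran from -0.58 to 0.10 with each library left out.

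*Slc38a3*, the glutamine carrier of the basolateral tubule membrane, and *Slc38a7*, a lysosomal glutamine carrier, had no read in any *Trf1*+/+ mouse, and in the *Trf1*flox/flox mice *Slc38a3* had 57.6, 0 and 18.6 and *Slc38a7* had 119, 1.09 and 79.9. In both, *Trf1*flox/flox replicate 2 was at or under the floor, so only 2 libraries carry the signal and neither gene was tested. *Slc38a9*, which reports lysosomal arginine to the growth kinase mTORC1, had 0.891, 15.7 and 131, against 145, 0 and 128. *Slc38a10* ranged from 1.78 to 401. *Slc36a4* had 2.67, 115 and 0, against 1.72, 446 and 110.3, and *Slc36a1*, of lysosomes, 0 to 291. *Slc43a2*, a carrier of large neutral amino acids, had 903, 614 and 237, against 253, 157 and 412, with the 2 highest values in *Trf1*+/+.

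Choline, the head group of the main membrane lipid, is carried by *Slc44a1*. This gene (chromosome 4, 53440413 to 53622478) had 0, 17.4 and 201 normalized counts in *Trf1*+/+ mice, against 273, 632 and 223 in *Trf1*flox/flox mice, with no overlap by 201 against 223. The difference was 4.45 on the log2 scale (standard error 1.96, adjusted p = 0.996 from limma), and 2.47 without *Trf1*+/+ replicate 1. Exons of *Slc44a1* overlap those of *1700060J05Rik* on the opposite strand. *Slc44a2* had 816, 373 and 142, against 198, 1144 and 172 (difference -0.05, standard error 1.16), and with each library left out the difference ran from -0.92 to 0.56. *Slc44a4*, which carries thiamine pyrophosphate, had 0, 9.11 and 481, against 195, 705 and 316, and stood above *Slc44a2* per kb of exon, at 91.4 ± 88.7 against 54.7 ± 47.6 (SD, n = 6), within the spread. *Slc44a3* was at 0 or 1 read in the *Trf1*+/+ libraries and had 22.3, 363 and 2.76 in *Trf1*flox/flox, the last of these 4 reads. Of 11 tested genes of choline and phosphatidylcholine synthesis 4 were higher (36.4%, against 55.9% of all tested genes) and 7 lower. The 1 with an unadjusted p under 0.05 was *Bhmt*, which passes a methyl group from betaine to homocysteine, with 0, 0.829 and 8.87 normalized counts in *Trf1*+/+ mice, against 539, 417 and 48.2 in *Trf1*flox/flox mice (adjusted p = 0.339 from limma). Among all tested genes 4.56% passed the unadjusted threshold.

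*Slc45a3* (chromosome 1, 131962967 to 131982969), a sugar carrier that works with protons, had the largest difference of all tested members. It had 0, 35.6 and 1.97 normalized counts in *Trf1*+/+ mice, against 265, 358 and 110.3 in *Trf1*flox/flox mice. The lowest *Trf1*flox/flox library was above the highest *Trf1*+/+ library by 110.3 against 35.6, and the difference was 5.53 on the log2 scale (standard error 1.49, adjusted p = 0.580 from limma). Leaving out any 1 library gave 4.40 to 6.99. An exon of *Slc45a3* overlaps that of *Gm29103* on the same strand. *Slc45a4*, its relative, differed the other way, with 541, 63.0 and 394, against 163, 0 and 163 (difference -3.00, standard error 2.24, or -0.55 without *Trf1*flox/flox replicate 2, which was at 0). The sum of both overlapped between the genotypes, at 345 ± 225 and 353 ± 77.6 (SD, n = 3).

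*Slc41a1* and *Slc41a3* carry magnesium, *Slc41a1* across the plasma membrane and *Slc41a3* in mitochondria. *Slc41a1* had 0, 129 and 180.3 in *Trf1*+/+ mice, against 0, 261 and 3.45 in *Trf1*flox/flox mice. No *Trf1*flox/flox mouse had a read of *Slc41a3*, but of the *Trf1*+/+ libraries only replicate 2 was above 1 read, with 118 normalized counts. Of 7 further tested genes of magnesium handling, 4 were higher and 3 lower. *Slc48a1*, which releases heme from lysosomes, had 1471, 830.2 and 1397, against 230.3, 951 and 673; its means were 1233 ± 350.5 (SD, n = 3) and 618 ± 363 (SD, n = 3), and its exons overlap those of *Hdac7* on the opposite strand. Of 7 tested genes of heme handling 3 were higher and 4 lower, and no gene of the magnesium and heme lists had an unadjusted p under 0.05.

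The carriers of the plasma membrane also need partners that take them to the surface or hold them there. Of 7 tested chaperones and scaffolds 3 were higher and 4 lower, with a median difference of -0.10 and no unadjusted p under 0.05 in limma. *Bsg*, which *Slc16a1* needs to reach the surface, had 7865, 7352 and 4226 normalized counts in *Trf1*+/+ mice, against 7818, 5517 and 4534 in *Trf1*flox/flox mice. *Emb*, which serves *Slc16a7* in the same way, had 2472, 2071 and 826 normalized counts in *Trf1*+/+ mice, against 1110.1, 892 and 547 in *Trf1*flox/flox mice, and *Pdzk1*, a scaffold of luminal carriers, had 3907, 1354 and 3887 normalized counts in *Trf1*+/+ mice, against 1799, 3341 and 1575 in *Trf1*flox/flox mice. None of these 3 was near the floor in *Trf1*+/+ replicate 1. Of the other tested genes of the list, *Arl6ip5* had 0.891 normalized counts there, and *Slc9a3r1*, *Cltrn* and *Arl6ip1* had 1196 to 11524. In that library 38 of the 71 tested members were at or under the floor, and 56.2% of all listed genes were above it.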

How the data were processed

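RNA of 500 sorted kidney cells from each of 3 *Trf1*+/+ and 3 *Trf1*flox/flox mice was copied with oligo(dT) priming, amplified by PCR and sequenced without keeping the strand. The authors aligned the reads with TopHat 2.0.10, Bowtie 1.0.0 and SAMtools 0.1.19, counted them per GENCODE vM20 gene with HTSeq 0.6.1 and deposited 1 value per gene and library, a signal in which the reads are divided by a size factor. The genome is GRCm38 in the study's methods and GRCm39 in the submitters' processing notes, and how genes were chosen for the table is not given in the sources used here. All values (100%, tolerance 0.01) were whole multiples of 1 read.

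Normalized counts were tested with limma 3.58.1 (R 4.3.3) on log2(value + 1) over genes with at least 10 in at least 3 libraries, with Benjamini-Hochberg adjustment over all 9966. Alternatives were a pseudocount of 5, no filter, at least 50 in 3 libraries, upper quartile scaling, edgeR 4.0.16 and DESeq2 1.42.0 on the recovered reads, each library left out, both libraries with the most zeros left out and, added after seeing the data, a mean-variance trend in limma. The test was run on simulated counts with a fixed dispersion and large changes. These did not have the wide spread between the mice here, so the check does not measure what could be found in these data. Positions and exon lengths are from GENCODE vM21 (GRCm38), matched by symbol for all 83 members, and promoters from RefSeq (GRCm38.p6), matched for 67. Exons of further members, *Slc27a2*, *Slc16a7* and *Slc35a4* among them, also overlap those of genes on the opposite strand. The values of 1 tested member are not reported here, and it is not drawn; counts and sums over the members include it.

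All statistics are given for members with an unadjusted p under 0.05 or without overlap, library values for the highest 1 or 2 of each family and for those with a genotype at the floor, and ranges or single values for others; library values of further members were added after their values were seen. The members and gene lists were chosen with earlier results of these data known.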

Additional observations from a re-analysis of the deposited data

How the results depend on the processing

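The number of genes past an adjusted p of 0.05 was 0 in limma under every alternative and in edgeR, and 58 with DESeq2, none of them a member. The 3 higher members at an unadjusted p under 0.05 (4.23%, against 3.54% of all tested genes) became 5 with a pseudocount of 5 (7.04%, against 3.9%). They were 5 without a filter (6.02%, against 3.65%) and 0 with edgeR (0%, against 1.26%). Without both libraries with the most zeros there was 1 (1.41%, against 3.37%). With each library left out there were 2 to 12 (2.82 to 16.9%, against 2.36 to 7.45%). Lower members at that threshold were 0 at first (0%, against 1.01%) and 2 without both libraries (2.82%, against 1.13%). There was 1 with a mean-variance trend, added after seeing the data (1.41%, against 1.03%). With each library left out there were 0 to 1 (0 to 1.41%, against 0.682 to 1.7%). Members without overlap numbered 11 higher (15.5%, against 15% of all tested genes) and 9 lower (12.7%, against 14.4%) without both libraries, 2 lower in edgeR (2.82%, against 3.31%), and 7 to 22 higher and 2 to 7 lower with each library left out (8.72 to 13.6% and 5.98 to 10.8% of all tested genes), where fewer libraries have to be apart; the other causes were not tested. *Slc16a11* did not reach the stricter minimum of 50. No paired analysis was possible because the labels give no replicate numbers that pair mice. With 3 mice a genotype and a median SD of 2.77 on the log2 scale within genotypes, small differences could not be resolved. Large ones did not pass either, since the largest of a member, 5.53 for *Slc45a3*, had an adjusted p of 0.580 from limma.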
